A study of Rattus norvegicus with 6 samples.

Results

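BMP signalling was read through 10 rat genes: 5 that encode bone morphogenetic protein (BMP) ligands (Bmp2, Bmp4, Bmp5, Bmp6 and Bmp7), 2 that encode receptors (Bmpr1a and Bmpr2) and 3 that respond to the pathway (Id1, Id2 and Id3). They were picked by gene name from a table of 34045 genes, and all 10 were found. The table comes from bulk RNA sequencing of calvarial bone defects, holes made in the skull roof, of wild-type male Sprague-Dawley rats, an outbred stock whose animals differ genetically. The defects had received a CGG-Cit hydrogel (3 libraries) or a CGG hydrogel (3 libraries), and the tissue was taken at week 4 after surgery. Both groups therefore share the surgery and a gel, and no defect without a gel was analysed here. The labels do not spell out CGG or Cit, give no age and do not say that each library is 1 rat, so the p-values cover the spread among these 6 libraries and may reflect technical variation alone.

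BMPs are secreted dimers of the TGF-beta superfamily, known for their ability to start bone formation. They bind a complex of type I receptors, such as Bmpr1a, and type II receptors, such as Bmpr2, whose kinases act on Smad1, Smad5 and Smad9. These join Smad4, enter the nucleus and switch on genes, among which the Id genes are the classic direct targets. Id proteins have a helix-loop-helix but no DNA-binding region, and they hold E proteins (Tcf3, Tcf4 and Tcf12) away from DNA, which delays differentiation in many cell types. Inhibitors outside the cell, such as Nog and Grem1, and brakes inside it, such as Smad6 and Smurf1, limit the signal.

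The stretches upstream of the 3 Id genes, where the pathway ends, and of Bmp6 and Bmpr2, the members whose difference between the gels passed the test below, are shown here. RefSeq promoter windows on build GRCr8 were found for 8 of the 10 members. Each line gives the 250 bases before the annotated start, 5′ to 3′ on the gene's own strand, with capitals for GTCT or its reverse complement AGAC, a core found in Smad binding elements, and for CANNTG, the E-box that E proteins bind. Id1 lies at chr3:161671314-161671563 on the plus strand, Id2 at chr6:47470996-47471245 on the minus strand, Id3 at chr5:153656041-153656290 on the plus strand, Bmp6 at chr17:26675262-26675511 on the minus strand and Bmpr2 at chr9:68686566-68686815 on the plus strand.
Id1: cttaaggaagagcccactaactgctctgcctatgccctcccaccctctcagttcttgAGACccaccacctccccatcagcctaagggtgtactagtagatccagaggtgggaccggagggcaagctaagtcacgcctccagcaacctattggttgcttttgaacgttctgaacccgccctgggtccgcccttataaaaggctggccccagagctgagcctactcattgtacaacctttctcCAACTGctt
Id2: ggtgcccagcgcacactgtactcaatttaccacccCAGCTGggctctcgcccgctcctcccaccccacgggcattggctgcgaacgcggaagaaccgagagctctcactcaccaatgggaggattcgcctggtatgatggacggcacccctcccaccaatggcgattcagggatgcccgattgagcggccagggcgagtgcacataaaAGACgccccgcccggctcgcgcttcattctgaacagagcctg
Id3: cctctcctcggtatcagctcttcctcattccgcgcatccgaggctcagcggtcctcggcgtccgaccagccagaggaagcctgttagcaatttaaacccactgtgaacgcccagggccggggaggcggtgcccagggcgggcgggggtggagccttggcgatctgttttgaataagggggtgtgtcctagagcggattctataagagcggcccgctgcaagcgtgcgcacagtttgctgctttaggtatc
Bmp6: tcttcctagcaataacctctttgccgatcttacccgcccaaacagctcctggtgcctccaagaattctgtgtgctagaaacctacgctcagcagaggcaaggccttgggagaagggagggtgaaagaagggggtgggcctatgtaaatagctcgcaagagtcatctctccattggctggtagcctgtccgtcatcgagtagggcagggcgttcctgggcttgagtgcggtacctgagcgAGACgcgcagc
Bmpr2: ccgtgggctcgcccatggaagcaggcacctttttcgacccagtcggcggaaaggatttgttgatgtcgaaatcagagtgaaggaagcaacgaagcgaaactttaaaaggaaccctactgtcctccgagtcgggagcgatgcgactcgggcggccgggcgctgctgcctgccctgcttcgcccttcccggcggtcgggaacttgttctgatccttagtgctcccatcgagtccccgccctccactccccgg
The Id1 window held 1 AGAC, whose first base lies 193 bases before the start, and 1 CANNTG at 9 bases. In Id2 an AGAC lies 42 bases and a CANNTG 215 bases before the start, and Bmp6 has an AGAC at 11 bases. The windows of Id3 and Bmpr2 held neither. On both strands, GTCT occurred in 84.0% and CANNTG in 65.5% of the 33469 windows of this length, so their presence sets no promoter apart. A GC-rich Smad element, GGCGCC, was in 8.69% of all windows and in 0 of the 8 matched here, and CAGAC, which contains AGAC, was in 42.9% of all windows and in 1 of the 8, that of Bmp4. A match describes letters in these windows and is no evidence of binding.

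Among the 10 genes, Bmp6 and Bmpr2 were higher in CGG-Cit than in CGG defects, and the other 8 did not pass the test. Expression is given as FPKM, a fragment count divided by gene length and by a scaled library size described below. Levels of different genes may therefore be set side by side. Limma was run on log2(FPKM + 1) for the 15965 genes that averaged 0.5 FPKM or more, and the threshold was a Benjamini-Hochberg adjusted p of 0.05. A positive log2 fold change means a higher level in CGG-Cit, and the added 1 shrinks the change of genes at low levels. All 10 members cleared the filter on low values. The 2 that passed are 20% of the members, against 17.5% of all genes tested (7.75% higher and 9.78% lower), which is near the background. An unadjusted p under 0.05 was found for 4 of the 10 members (Bmp2, Bmp6, Bmpr1a and Bmpr2) and for 35.4% of all genes. Higher genes made up 44.2% of all calls. With values rescaled to TPM they made up 69.9%, since that scaling put the median log2 fold change of all genes at 0.16, and it left both calls among the members in place. Of the 10 members 6 had groups without overlap, 5 of them higher and 1 lower in CGG-Cit. Over all genes 41.7% did not overlap, 19.6% higher and 22.1% lower. The median log2 fold change was 0.20 over the members and 0.0023 over all genes tested. In bulk tissue, fewer cells of a type and less RNA per cell cannot be told apart, here and throughout.

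**Figure D1:**
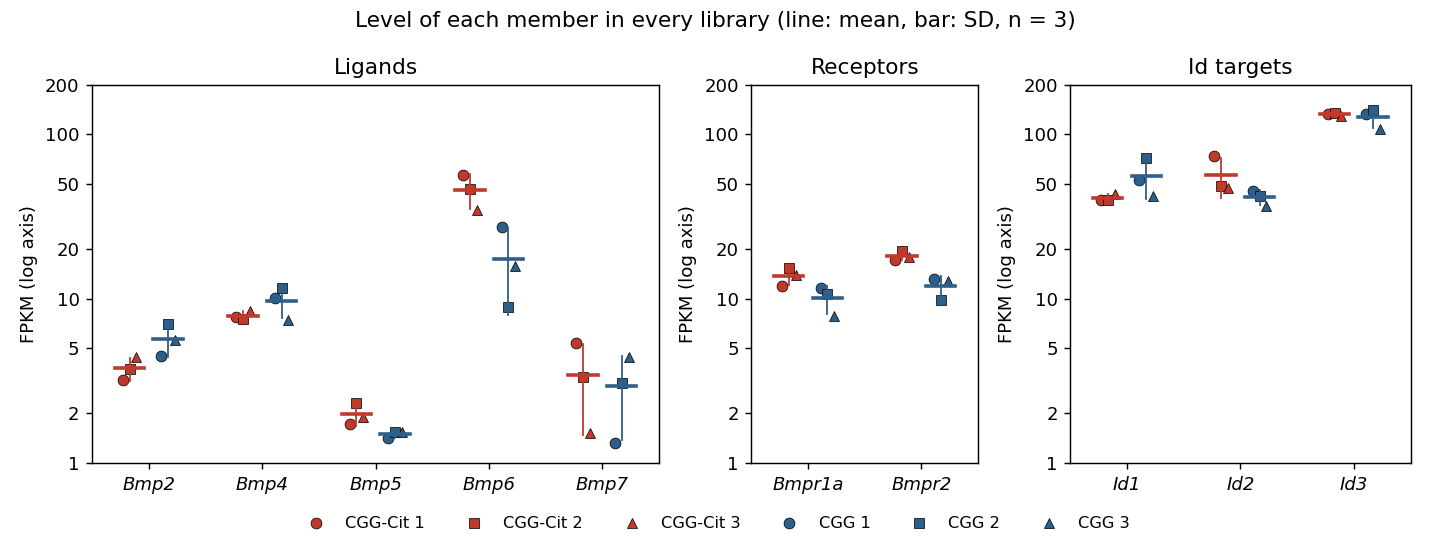
FPKM of the 10 members on a log axis in each CGG-Cit (red) and CGG (blue) library, with a line at the group mean and a bar for the SD (n = 3). Bmp6 and Bmpr2 show CGG-Cit values above all CGG values, while Id3 lies between 107.9 and 141.2 FPKM in all 6 libraries.

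Levels spanned from Id3, which averaged 132.1 ± 2.31 FPKM in CGG-Cit and 127.6 ± 17.5 FPKM in CGG defects (SD, n = 3 each), down to Bmp5, which averaged 1.98 ± 0.311 and 1.501 ± 0.0743 FPKM in CGG-Cit and CGG. Ordered by the mean of all 6 libraries, Id3 was followed by Id2, Id1, Bmp6, Bmpr2, Bmpr1a, Bmp4, Bmp2, Bmp7 and Bmp5. In the CGG-Cit libraries, neighbours overlapped in their ranges at Id1 and Bmp6, at Bmp2 and Bmp7, and at Bmp7 and Bmp5. In the CGG libraries Bmp6, Bmpr2, Bmpr1a and Bmp4 could not be put in order, because each overlapped with the next, and neither could Bmp7 and Bmp5. The CGG ranges of Id2 (36.5 to 45.2 FPKM) and Id1 (41.9 to 72.2 FPKM) overlapped as well. Id2 lay above Id1 in 3 of 3 CGG-Cit libraries and in 0 of 3 CGG libraries.

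Among the ligands Bmp6 alone passed. Bmp6 encodes an osteogenic ligand that is also the iron-sensing signal of the liver (ENSRNOG00000013717, listed at chromosome 17, 26955142 to 27112820). It stood at 56.7, 46.7 and 34.8 FPKM in CGG-Cit 1, 2 and 3, against 27.4, 8.87 and 15.7 FPKM in CGG 1, 2 and 3. The 3 CGG-Cit libraries were all above the 3 CGG libraries, with CGG-Cit 3 the lowest of its group and nearest to CGG 1, the highest of the other, and the CGG libraries differed 3.09-fold among themselves. The means were 46.0 ± 10.99 FPKM in CGG-Cit and 17.3 ± 9.39 FPKM in CGG (SD, n = 3 each), a 2.65-fold difference. In limma the log2 fold change was 1.46 ± 0.382 (SE; 95% interval 0.55 to 2.38; adjusted p = 0.0441). These values rested on 211 to 1318 fragments per library.

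The call on Bmp6 did not hold when single libraries were left out, although the direction did. The log2 fold change was 1.30 without CGG-Cit 1 (adjusted p = 0.115), 1.44 without CGG-Cit 2 (0.129), 1.08 without CGG 2 (0.0793) and 1.46 without CGG 3 (0.125). It still passed at 1.65 without CGG-Cit 3 (0.0487) and at 1.85 without CGG 1 (0.0323). With no filter on low values Bmp6 did not pass (0.0741).

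Bmp2, the ligand that starts fracture healing in mice, stood at 3.18, 3.73 and 4.38 FPKM in CGG-Cit 1, 2 and 3, against 4.45, 6.99 and 5.59 FPKM in CGG 1, 2 and 3. The groups did not overlap, but CGG-Cit 3 and CGG 1 were nearly level. The log2 fold change of -0.48 (95% interval -0.90 to -0.05) did not pass (adjusted p = 0.110), nor did it in any of the 18 alternative fits (0.086 to 0.244).

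Bmp4, the ligand closest to Bmp2 in the family, read 7.73, 7.47 and 8.45 FPKM in CGG-Cit 1, 2 and 3 and 10.1, 11.6 and 7.45 FPKM in CGG 1, 2 and 3. The groups overlapped because CGG 3 was the lowest of the 6, and the log2 fold change was -0.25 (95% interval -0.64 to 0.13; adjusted p = 0.305). It was -0.13 without CGG 2 and -0.41 without CGG 3. Bmp5, whose loss gives the short-ear mouse its skeletal defects, was the lowest ligand, at 1.72, 2.33 and 1.90 FPKM in CGG-Cit 1, 2 and 3 and 1.42, 1.54 and 1.54 FPKM in CGG 1, 2 and 3. Its groups did not overlap, yet with 73 to 116 fragments per library the log2 fold change of 0.25 (95% interval -0.09 to 0.59) had an adjusted p of 0.261. Bmp7, also called osteogenic protein and needed for the kidney and eye in mice, varied most within groups. It stood at 5.36, 3.33 and 1.53 FPKM in CGG-Cit 1, 2 and 3 and 1.33, 3.06 and 4.44 FPKM in CGG 1, 2 and 3. The highest and the lowest library differed 3.50-fold within CGG-Cit and 3.34-fold within CGG, and the log2 fold change of 0.14 had an interval of -0.86 to 1.15 (adjusted p = 0.834). Without CGG-Cit 1 or CGG 1 its sign turned, to -0.17 and -0.19.

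The summed FPKM of the 5 ligands was 51.0 to 74.7 in CGG-Cit and 32.0 to 44.8 in CGG. Bmp6 made up 72.5 ± 3.98% of that sum in CGG-Cit and 44.7 ± 16.8% in CGG (SD, n = 3 each). Without Bmp6 the ligand sum was 17.98, 16.9 and 16.3 FPKM in CGG-Cit 1, 2 and 3, against 17.3, 23.2 and 19.0 FPKM in CGG 1, 2 and 3. The groups then overlapped, so the higher ligand sum in CGG-Cit lay in Bmp6. The share of Bmp2 was 6.24 ± 2.19% in CGG-Cit and 16.0 ± 5.94% in CGG, and that of Bmp4 was 12.9 ± 3.25% in CGG-Cit and 26.7 ± 8.13% in CGG. The 5 genes add to 100% in each library, so a higher share of Bmp6 lowers the others by construction.

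**Figure D2:**
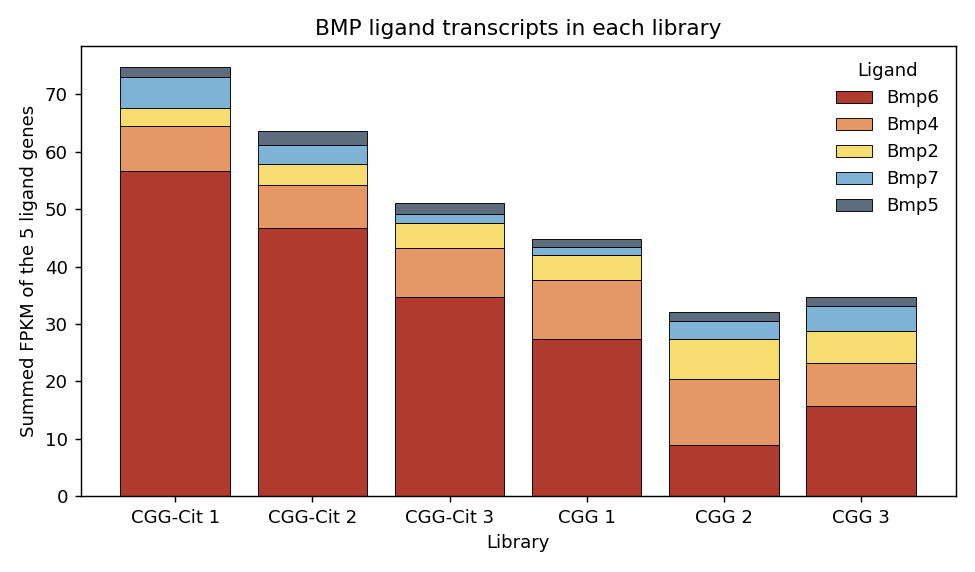
Summed FPKM of the 5 BMP ligand genes in each library, stacked by gene, with CGG-Cit libraries at the left and CGG libraries at the right. Bmp6 (bottom layer) runs between 34.8 and 56.7 FPKM in CGG-Cit and between 8.87 and 27.4 FPKM in CGG, while the layers above it sum to 16.3 to 17.98 FPKM in CGG-Cit and 17.3 to 23.2 FPKM in CGG.

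Of the receptors, Bmpr2 passed and Bmpr1a did not. Bmpr2 encodes the type II receptor whose loss in humans causes inherited pulmonary hypertension (ENSRNOG00000022196, listed at chromosome 9, 66568074 to 66676494). Its levels were 17.3, 19.5 and 17.9 FPKM in CGG-Cit 1, 2 and 3, against 13.2, 9.79 and 12.7 FPKM in CGG 1, 2 and 3. The CGG-Cit libraries lay close together and all above the CGG libraries. The means of 18.3 ± 1.15 FPKM in CGG-Cit and 11.9 ± 1.83 FPKM in CGG (SD, n = 3 each) differed 1.54-fold, with a log2 fold change of 0.59 ± 0.13 (SE; 95% interval 0.28 to 0.90; adjusted p = 0.0288) over 592 to 1166 fragments per library. Leaving out 1 library kept the direction (0.47 to 0.66) but ended the call without CGG-Cit 1 (adjusted p = 0.0630), CGG-Cit 2 (0.102), CGG 1 (0.0532), CGG 2 (0.0582) and CGG 3 (0.0782), while it held without CGG-Cit 3 (0.0493).

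Bmpr1a, a type I receptor needed for bone and cartilage formation in mice, read 12.0, 15.3 and 13.9 FPKM in CGG-Cit 1, 2 and 3, against 11.6, 10.7 and 7.86 FPKM in CGG 1, 2 and 3. The groups did not overlap, but CGG-Cit 1 and CGG 1 were almost level. The log2 fold change of 0.42 (95% interval 0.04 to 0.81) had an adjusted p of 0.117, and 0.0555 to 0.293 over the 18 alternative fits, and it was 0.27 without CGG 3. The ratio of Bmpr2 to Bmpr1a was 1.28 to 1.45 in the CGG-Cit libraries and 0.918 to 1.62 in the CGG libraries, so the groups overlapped.

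None of the 3 Id genes passed in limma, at an unadjusted p under 0.05 or with voom, and their log2 fold changes differed in sign. Id1 (ENSRNOG00000021750, listed at chromosome 3, 148215540 to 148216718), the member most often used as a readout of BMP signals, stood at 40.1, 40.0 and 43.5 FPKM in CGG-Cit 1, 2 and 3, against 52.5, 72.2 and 41.9 FPKM in CGG 1, 2 and 3. The CGG-Cit libraries agree within 1.09-fold, and CGG 3 lay among them. The log2 fold change was -0.39 (95% interval -0.84 to 0.06; adjusted p = 0.196), and -0.18 without CGG 2, the highest library. Id2 (ENSRNOG00000007237), which many immune cells also need, read 73.7, 48.3 and 47.0 FPKM in CGG-Cit 1, 2 and 3, against 45.2, 42.3 and 36.5 FPKM in CGG 1, 2 and 3. Its groups did not overlap, but only CGG-Cit 1 stood well apart. The log2 fold change was 0.41 (95% interval -0.04 to 0.86; adjusted p = 0.173), and 0.20 without CGG-Cit 1. Id3 (ENSRNOG00000026124), which overlaps with Id1 in function in mice, stood at 132.2, 134.4 and 129.8 FPKM in CGG-Cit 1, 2 and 3 and 133.8, 141.2 and 107.9 FPKM in CGG 1, 2 and 3. Here the CGG-Cit libraries lay inside the range of the CGG libraries, and the interval of the log2 fold change, -0.22 to 0.34, was the narrowest of the 10 members (log2 fold change 0.06; adjusted p = 0.754). Without CGG 3, the lowest library, the log2 fold change was -0.06.

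The summed FPKM of the 3 Id genes was 220.2 to 246.0 in CGG-Cit and 186.3 to 255.7 in CGG, which overlapped. Id3 held 57.7 ± 3.48% of it in CGG-Cit and 57.0 ± 1.52% in CGG (SD, n = 3 each). The ratio of Id1 to Id2 within a library was 0.544, 0.830 and 0.926 in CGG-Cit 1, 2 and 3, against 1.16, 1.71 and 1.15 in CGG 1, 2 and 3. The ratio was therefore below 1 in every CGG-Cit library and above 1 in every CGG library. It was picked after the values of both genes were seen and is a description.

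**Figure D3:**
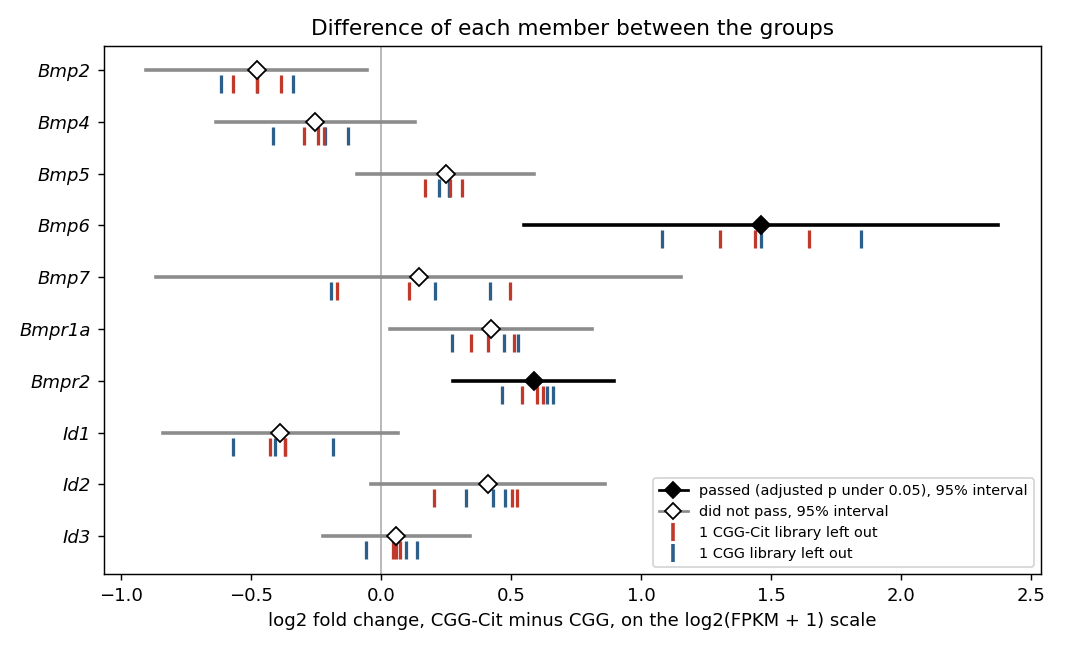
Difference of each member in log2(FPKM + 1), with CGG-Cit above CGG to the right of 0: diamonds with 95% intervals from all 6 libraries, and short ticks with 1 CGG-Cit (red) or 1 CGG (blue) library left out. The filled diamonds, Bmp6 at 1.46 and Bmpr2 at 0.59, passed, and the ticks of Bmp7 and Id3 fall on both sides of 0.

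Markers of the cell types that a defect may hold also differed between the gels, while depth was even, at 14744207 to 16127352 fragments in CGG-Cit and 15054925 to 16224920 in CGG. All 11 matched skeletal muscle markers were lower in CGG-Cit (summed level 39.3 to 356.3 FPKM in CGG-Cit and 6789 to 8726 in CGG), as were 9 of 9 neutrophil markers tested (2318 to 6003 and 14472 to 16450 FPKM in CGG-Cit and CGG, with Ltf at 0 in at least 1 library) and 7 of 7 erythroid markers (346.4 to 644.6 and 1091 to 1347 FPKM). The 12 osteoblast markers, which check the labelled bone tissue, were all above 0 in every library, and 6 passed as lower (5192 to 9726 FPKM in CGG-Cit and 10772 to 15369 in CGG). Without overlap, 10 of the 12 were lower (83.3%, against 22.1% of all genes lower). Voom called 8 lower (66.7%), against 1589 of all 15965 genes lower and 18.4% in either direction. Over all genes tested, limma called 7.75% higher and 9.78% lower. Of 10 macrophage markers 8 were higher (1637 to 2388 and 897 to 1045 FPKM in CGG-Cit and CGG), of 9 fibroblast matrix markers 6 (3612 to 4537 and 1728 to 3004 FPKM) and of 9 meningeal markers 4 (218.5 to 1764 and 54.6 to 341.0 FPKM). The 9 matched endothelial markers gave 0 calls in limma (voom also gave 0, and 1 marker had an unadjusted p under 0.05) and their sums overlapped (229.0 to 314.1 and 173.9 to 289.4 FPKM). Their part in the differences of Bmp6 and Bmpr2 was not tested.

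Of 12672 named protein-coding genes searched, Zic1 and Smoc1 were among the closest to Bmp6 in their profile over the 6 libraries. Likeness was the root mean square difference of log2(FPKM + 1) values centred on each gene's mean, and it was 0.20 for Zic1 and 0.21 for Smoc1. Zic1, one of the meningeal markers above, read 32.3, 28.5 and 20.8 FPKM in CGG-Cit 1, 2 and 3. In CGG 1, 2 and 3 Zic1 read 15.6, 7.495 and 10.5 FPKM, the same order of libraries as Bmp6. Because Zic1 was picked for its likeness to Bmp6 in these same values, a like order follows from the search. The summed level of the meningeal list did not follow that order. It was 1764, 512.5 and 218.5 FPKM in CGG-Cit 1, 2 and 3 and 73.6, 54.6 and 341.0 FPKM in CGG 1, 2 and 3. Ptgds, a gene of that list, alone read 1540, 332.9 and 110.7 FPKM in CGG-Cit 1, 2 and 3. In CGG 1, 2 and 3 Ptgds read 19.9, 15.4 and 269.2 FPKM. The sums therefore lean on 1 gene and do not stand for the list as a whole. For Bmpr2 the closest were Arrb1, Syne3 and Ccdc50, at 0.038, 0.059 and 0.068. For Id2, the Id gene of smallest p, they were Pcdhga3, Hic1 and Ctla4 at 0.059, 0.060 and 0.074, whose highest value was 1.49 FPKM, so those profiles are of far lower genes.

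Beyond the 10 members, 62 further genes of the pathway in 5 lists were all in the table and 52 cleared the filter. The lists were chosen with earlier results of these data known. The shares given here and for each list below are therefore descriptions only. Limma called 11 of the 52 genes higher and 6 lower in CGG-Cit (32.7%, against 17.5% of all genes tested), and the median log2 fold change of the 52 was 0.21. Groups without overlap were found in 29 of the 52 (55.8%, against 41.7% of all genes), 18 higher and 11 lower. The count rests on few libraries: of the 17 genes, 4 still passed without CGG-Cit 1, 1 without CGG-Cit 2, 9 without CGG-Cit 3, 5 without CGG 1, 5 without CGG 2 and 1 without CGG 3. Fstl1, a secreted glycoprotein that binds Bmp4 in mice, was the gene that passed in every one of the 18 alternative fits.

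**Figure D4:**
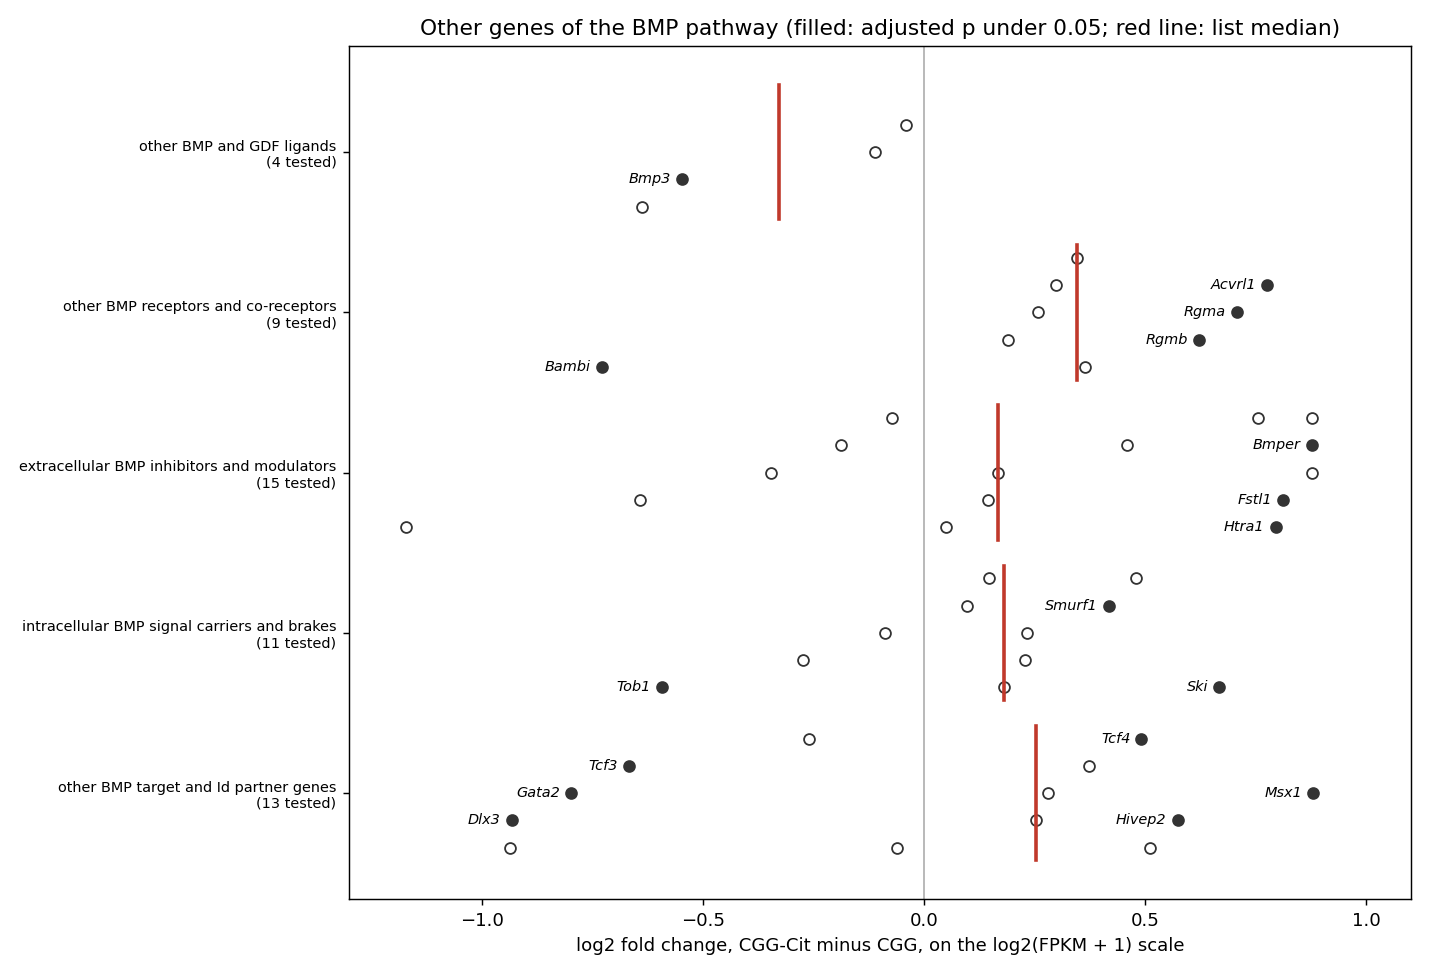
Log2 fold changes (positive where CGG-Cit is higher) of the 52 tested genes of the BMP pathway that are not among the 10 members, by list (filled points passed, open points did not, and the red line is the list median). The receptor list is centred at 0.35, with Bambi alone below 0, and the list of targets and Id partners has 3 calls on each side.

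Of 11 other ligands 4 were tested, and Bmp3 alone passed, lower in CGG-Cit (25%, against 17.5% of all genes; list median -0.33). Bmp3, made by osteoblasts and osteocytes and known to limit bone mass in mice, averaged 7.35 ± 1.15 FPKM in CGG-Cit and 11.1 ± 1.11 FPKM in CGG (SD, n = 3 each; log2 fold change -0.55 ± 0.14, SE; adjusted p = 0.0412). It no longer passed when any 1 library was left out (adjusted p = 0.0552 to 0.110), nor after rescaling to TPM (0.0988) or to equal totals (0.0543), with no filter (0.0646) or with the replicate block (0.0704). Bmp8a, whose reads could be shared with the near-identical Bmp8b, stood at 3.03 to 7.42 FPKM in CGG-Cit and 7.94 to 10.6 FPKM in CGG (adjusted p = 0.169). Osteoblast markers, of which 6 of 12 passed as lower and 10 were lower without overlap in the same libraries, moved the same way. Their part was not tested.

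Of 9 tested receptors and co-receptors 3 were higher and 1 was lower (44.4%, against 17.5% of all genes; list median 0.35). Acvrl1, a type I receptor of endothelial cells, averaged 24.3 ± 1.44 FPKM in CGG-Cit and 14.0 ± 3.22 FPKM in CGG (SD, n = 3 each; log2 fold change 0.78 ± 0.17, SE; adjusted p = 0.0282), and the endothelial markers had a median log2 fold change of 0.35 with 0 of 9 passing; their part was not tested. The co-receptors Rgma and Rgmb, which help BMPs to bind, had log2 fold changes of 0.71 and 0.62 (adjusted p = 0.0455 and 0.0436). Bambi, a decoy receptor without a kinase, fell to 16.1 ± 2.75 FPKM in CGG-Cit, against 27.5 ± 6.25 FPKM in CGG (log2 fold change -0.73; adjusted p = 0.0433). All 4 calls ended without CGG-Cit 1, 2 or 3 or without CGG 3 (adjusted p of 0.0557 to 0.128), 3 without CGG 1 (up to 0.117) and 2 without CGG 2 (up to 0.113). Bambi also failed after rescaling to TPM (0.0514) and with quality weights (0.0518), Rgma with equal totals (0.0551), these and Rgmb with no filter on low values (0.0685 to 0.0775), and Acvrl1, Rgma and Rgmb with the replicate block (0.0662 to 0.107). Eng, a co-receptor of blood vessels that is also among the endothelial markers, stood at 0.35 without passing (adjusted p = 0.184).

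Among 15 tested extracellular inhibitors and modulators 3 rose and 0 fell in limma (20%, near the 17.5% of all genes; list median 0.17). An unadjusted p under 0.05 was seen for 6 higher and 2 lower genes (53.3%, against 35.4% of all genes), and voom called 5 higher and 1 lower (40%, against 18.4% of all genes). Fstl1 read 156.8, 146.4 and 169.2 FPKM in CGG-Cit 1, 2 and 3, against 95.3, 94.9 and 78.2 FPKM in CGG 1, 2 and 3, with a wide gap between the groups. Its log2 fold change was 0.81 ± 0.11 (SE; adjusted p = 0.0115). Htra1, a secreted serine protease that cleaves matrix proteins, had a log2 fold change of 0.80 (adjusted p = 0.0323), and Bmper, which binds BMPs outside the cell, one of 0.88 at 2.77 ± 0.649 FPKM in CGG-Cit and 1.04 ± 0.211 FPKM in CGG (SD, n = 3 each; adjusted p = 0.0258). Both calls ended without CGG-Cit 2, CGG-Cit 3, CGG 1 or CGG 3 (adjusted p of 0.0507 to 0.0978), that of Htra1 also without CGG-Cit 1 (0.0866) and that of Bmper without CGG 2 (0.0601). Both failed with the replicate block (0.0673 for Htra1 and 0.0663 for Bmper), and Htra1 with no filter (0.0537). Fibroblast matrix markers were higher in the same libraries (6 of 9), and their part was not tested. Grem1, an inhibitor of Bmp2 and Bmp4, stood at 3.81 ± 0.735 FPKM in CGG-Cit and 6.53 ± 1.36 FPKM in CGG without overlap, and just missed (adjusted p = 0.0533). Grem1 passed in 3 of the 18 alternative fits: the filter at 2 FPKM, quality weights and voom. Chrdl1, a chordin relative that binds BMPs, and Tll1, a protease that cuts chordin, each had a log2 fold change of 0.88 without passing (adjusted p = 0.0559 and 0.0659). Both passed after rescaling to TPM and with voom, and Chrdl1 also with the filter at 2 FPKM. Nog, the inhibitor noggin, overlapped at 1.31 to 2.86 FPKM in CGG-Cit and 1.37 to 2.87 FPKM in CGG (adjusted p = 0.664).

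Inside the cell, 2 of 11 tested carriers and brakes rose and 1 fell (27.3%, against 17.5% of all genes; list median 0.18). Smurf1, a ubiquitin ligase that marks Smad proteins for breakdown, had a log2 fold change of 0.42 (adjusted p = 0.0309) and Ski, a corepressor that binds Smads, one of 0.67 (0.0247). Tob1, which dampens Smad activity in mouse osteoblasts, fell to 12.1 ± 1.01 FPKM in CGG-Cit, against 18.7 ± 1.06 FPKM in CGG (SD, n = 3 each; log2 fold change -0.59; adjusted p = 0.0171). All 3 calls ended without CGG-Cit 2, CGG 2 or CGG 3 (adjusted p of 0.0525 to 0.110), those of Smurf1 and Ski without CGG-Cit 1 (0.0775 and 0.0572) and that of Smurf1 without CGG 1 (0.0822). With the replicate block Smurf1 and Ski failed (0.0774 and 0.0521). The Smads that carry the BMP signal did not pass: Smad1 averaged 14.3 ± 1.42 FPKM in CGG-Cit and 12.5 ± 0.467 FPKM in CGG (adjusted p = 0.258) and Smad5 14.6 ± 1.19 and 13.1 ± 0.618 FPKM in CGG-Cit and CGG (0.324). Smad4, the partner they share, averaged 36.3 ± 1.33 FPKM in CGG-Cit and 30.9 ± 0.051 FPKM in CGG and did not pass either (0.0836). Of the 18 alternative fits, Smad4 passed in 1, the rescaling to TPM. Smad9 lay under the filter, at 0.0231 to 0.0843 FPKM over the 6 libraries. Smad6 and Smad7, feedback brakes that BMP itself induces in many cells, had log2 fold changes of -0.27 and -0.09 (adjusted p = 0.142 and 0.595).

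Of 13 other targets and Id partners 3 rose and 3 fell (46.2%, against 17.5% of all genes; list median 0.25). The homeobox genes split: Msx1, a craniofacial target of BMPs, averaged 16.8 ± 2.87 FPKM in CGG-Cit and 8.77 ± 2.43 FPKM in CGG (SD, n = 3 each; log2 fold change 0.88; adjusted p = 0.0310). Dlx3, a factor of osteoblasts and skin, averaged 3.34 ± 0.887 FPKM in CGG-Cit and 7.18 ± 0.765 FPKM in CGG (log2 fold change -0.93; adjusted p = 0.0219), and Dlx5 had a log2 fold change of -0.94 without passing (0.0758). So did the E proteins that Id proteins bind: Tcf3 read 28.3, 29.2 and 37.4 FPKM in CGG-Cit 1, 2 and 3, against 51.9, 44.5 and 55.6 FPKM in CGG 1, 2 and 3, with no overlap (log2 fold change -0.67; adjusted p = 0.0258). Tcf4 rose by 0.49 (adjusted p = 0.0470) and Tcf12 stood at 0.25 without passing (0.189). Gata2, a blood progenitor factor, had a log2 fold change of -0.80 and Hivep2, a Smad partner, one of 0.57 (adjusted p = 0.0290 and 0.0315). All 6 calls ended without CGG-Cit 2 or CGG 3 (adjusted p of 0.0693 to 0.142), 5 without CGG-Cit 1, 5 without CGG 1 and 5 without CGG 2 (up to 0.0962), and that of Tcf4 without CGG-Cit 3 (0.0983). Tcf3 also failed after rescaling to TPM (0.0751), Tcf4 with equal totals (0.0540), Msx1, Tcf4, Gata2 and Hivep2 with no filter on low values (0.0520 to 0.0687), and Tcf4, Gata2 and Hivep2 with the replicate block (0.0527 to 0.104). The erythroid markers (7 of 7 lower) and osteoblast markers (6 of 12 passed as lower) moved in the same libraries, and their part was not tested. The other Id gene, Id4, averaged 10.2 ± 2.72 FPKM in CGG-Cit and 7.10 ± 2.88 FPKM in CGG, with overlap (adjusted p = 0.267).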

How the data were processed

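The authors deposited 1 table of FPKM values per gene. Tools named in the submitters' processing notes, without their roles, are DESeq2 1.20.0, HISAT2 2.0.5 and featureCounts 1.5.0-p3, and the build named is mRatBN7.2. The annotation release is not given in the sources used here, nor is the strand setting. Gene coordinates are printed as listed, with no build, because the table's last gene on chromosome 1 ends at 282724300 and that of GRCr8 at 270492571. Without a strand setting, overlapping and antisense genes cannot be told apart. FPKM times the listed gene length gave whole multiples of 1 fragment in 100% of values above 0, within 0.01 fragments. These recovered fragments give the depth, 14744207 to 16224920 per library. The FPKM scaling used other library sizes, 1.522e+07 to 1.678e+07, at which 1 fragment equals 0.0596 to 0.0657 FPKM for a gene of 1 kb. In CGG 2 the 16224920 recovered fragments exceeded the scaling size of 1.563e+07. In CGG 1 the 15054925 recovered fragments fell short of 1.596e+07. How the scaling sizes were set was not tested.

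Groups and replicate numbers come from the sample titles. Differences were tested with limma 3.58.1 under R 4.3.3 (moderated by eBayes, trend allowed) on log2(FPKM + 1), without a block, and the code was tested on simulated data. Other steps used pandas 2.3.3 in Python 3.11.15. Alternatives, 18 in all, were pseudocounts of 0.1 and 0.5, a filter at a mean of 2 FPKM or none, 4 other scalings, robust variances, quality weights, a replicate block, voom on recovered fragments and each library left out. The members, the gene lists and the markers were chosen with earlier results of these data known. Named genes were all members, the pathway genes that passed with up to 4 others of smallest p per list, and the 3 closest profiles per role, of which 1 is not reported here. Nog, Smad1, Smad5, Smad7, Smad9, Id4, Bmp8b, Gdf5, Bmpr1b and Ptgds were named after their values were seen. Of 152 list symbols 149 were matched, and the others were not analysed here.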

Additional observations from a re-analysis of the deposited data

How the results depend on the processing

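Every member kept its direction in all 18 alternative fits (17 for Bmp5, which the filter at a mean of 2 FPKM removed) except Bmp7 (16 of 18) and Id3 (17 of 18), neither of which passed in any. With no filter on low values 1 member was higher instead of 2, because Bmp6 (1.46, adjusted p = 0.0741) no longer passed, and the other pathway genes gave 6 higher and 3 lower. Rescaling to TPM moved the median of all genes to 0.16, and Bmp6 at 1.66 and Bmpr2 at 0.77 still passed. It changed the counts to 3 lower pathway genes and, over all genes, to 2203 higher and 948 lower (69.9% higher, against 44.2% in the reported fit of 1237 and 1561). Among the pathway genes that had not passed, Chrdl1, Tll1, Nbl1 and Smad4 passed as higher after this rescaling. The replicate block left 1 member higher, since Bmpr2 (0.59, adjusted p = 0.0758) no longer passed, 2 pathway genes higher and 612 genes higher. The replicate numbers gave no sign of paired libraries: deviations of equal numbers correlated at -0.0956, 0.0016 and -0.0779, and those of unequal numbers at -0.0587 to 0.125. The labels do not speak of pairing, and these values cannot exclude it. The cause of these changes was not tested. With 1 library left out, the count of higher members was 0 to 2 and of lower members 0, of higher pathway genes 1 to 5 and of lower ones 0 to 5, and of all genes 122 to 1312 higher and 190 to 1622 lower. Bmp6 ranged from 1.08 to 1.85 and Bmpr2 from 0.47 to 0.66. Bmp5 rested on 73 to 116 and Bmp7 on 43 to 166 fragments per library.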

Other observations

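Ligands and receptors under the filter on low values were not tested in the comparison. Gdf5, a ligand of joints and tendons that signals through the type I receptor Bmpr1b, stood at 0.879, 0.522 and 0.961 FPKM in CGG-Cit 1, 2 and 3, against 0.0842, 0.129 and 0.0883 FPKM in CGG 1, 2 and 3. These were 20, 12 and 24 fragments in CGG-Cit 1, 2 and 3 and 2, 3 and 2 fragments in CGG 1, 2 and 3, and the groups did not overlap. With no filter on low values, limma gave a log2 fold change of 0.69 ± 0.11 (SE; adjusted p = 0.0283) on the log2(FPKM + 1) scale. Bmpr1b stood at 0.379, 0.409 and 0.565 FPKM in CGG-Cit 1, 2 and 3, against 0.231, 0.101 and 0.242 FPKM in CGG 1, 2 and 3, and did not pass in that fit (adjusted p = 0.0985). Both genes were picked after their values were seen.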
